A study of Zea mays with 12 samples.

Results

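ALF6, ALF7 and ALF19 are 3 Alfin-like genes of maize (Zea mays), taken by symbol from a gene table of 99 genes and followed here across seed embryos of 2 inbred lines at 2 temperatures. All 3 were among the 76 genes that passed the filter on low values (FPKM of at least 1 in at least 3 libraries). The symbols of these 76 genes all begin with the letter A, so shares and ranks over them describe this table only. The lines are B73, labelled as low temperature resistant, and Mo17, labelled as sensitive, with no introduced alleles named. Seeds imbibed in germination paper at 25 °C or at 10 °C and embryos were sampled at 2 h, so the groups were B73 at 25 °C, B73 at 10 °C, Mo17 at 25 °C and Mo17 at 10 °C, with 3 replicates each and 12 libraries in all. Each line is 1 genotype, and the sources used here do not say how many embryos went into a library or how the replicates were grown, so p-values measure the spread between these libraries, which may be technical.

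Alfin-like proteins are a small plant family named after Alfin1 of alfalfa. They join a family-specific domain at the start of the protein to a PHD finger at its end, a zinc-binding fold that in these proteins recognises methylated histone H3. In Arabidopsis, members of the family work with Polycomb group RING proteins in switching off seed developmental genes as seeds germinate. Salt and phosphate responses are also among the roles of the family. Which Arabidopsis protein corresponds to which maize member was not examined.

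The deposited annotation describes the members largely alike. The term histone binding was listed for ALF7 and ALF19 but not for ALF6, and cytosol for ALF19 alone of the 3. ALF6 is listed as a PHD finger protein with 2 transcripts on chromosome 10 at 32089462 to 32094227 (minus strand), ALF7 as PHD finger protein ALFIN-LIKE 7 on chromosome 4 at 124419578 to 124423041 (plus strand), and ALF19 as a PHD finger protein on chromosome 2 at 162911455 to 162914553 (plus strand), in coordinates of B73 RefGen_v4. These spans cover whole genes, exons and introns together. Methylated histone binding and covalent chromatin modification were annotated to 4 of the 99 genes, which are these 3 and ALF10, the remaining Alfin-like symbol of the table. ALF7 alone carried the term transcription corepressor activity, and it shared response to salt stress with 6 other genes of the table (7 in all) and response to water deprivation with 3 others (4 in all). ALF10, on chromosome 10 at 120752698 to 120758078 (plus strand), was listed at 0 in all 12 libraries. Members of 1 family can share reads, and how the authors' counting divided such reads is not given, so the division between family members is uncertain.

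The levels rest on deposited counts of 1182 to 2747 for these genes and on FPKM, the authors' fragment count scaled to gene length and library size, which allows genes to be set beside each other. Relative library depth ran from 0.82 to 1.08. None of 8 embryo marker genes listed for a check of the tissue was in the table, and of 12 endosperm and aleurone markers 2 were. Symbols of the tested genes all begin with the letter A. None of the embryo markers does, nor do most endosperm and aleurone markers, so their absence says nothing of the tissue. The anthocyanin gene a2, a leucoanthocyanidin dioxygenase, lay at 0 to 0.06 FPKM. The starch branching enzyme of the endosperm, matched by its product as ae1_1 after the levels were seen, lay higher in Mo17 than in B73. The gene listed as ae1, another protein, was at 0, and a2_1 is no anthocyanin gene by its annotation. One library stood apart. B73 10 °C replicate 1 correlated at 0.969 and 0.974 with its replicates over the tested genes, and those correlated at 0.997 with each other (Pearson r on the log2(FPKM + 1) scale, over genes that are not independent of each other). It also gave the lowest ALF6, the lowest ALF7 and the highest ALF19 of its group, and line, temperature and ratio results are given with and without it where it moves them. Fewer cells of a type and less RNA per cell cannot be told apart in whole embryos.

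The 3 genes lay between 9.95 and 30.06 FPKM in the 12 libraries. Over the 12 libraries the mean FPKM was 21.4 ± 5.03 for ALF19, 16.4 ± 2.33 for ALF6 and 15.5 ± 2.24 for ALF7 (SD, n = 12). These placed them at ranks 34, 38 and 42 of the 76 tested genes, whose median gene had a mean FPKM of 16.4. ALF19 was the highest of the 3 in 10 of 12 libraries, and the exceptions were Mo17 25 °C replicate 3, led by ALF6, and Mo17 10 °C replicate 3, led by ALF7. ALF6 lay above ALF7 in 5 of 6 B73 libraries and in 3 of 6 Mo17 libraries. Over all libraries the coefficient of variation was 14.2% for ALF6 and 14.4% for ALF7, the 13th and 14th lowest of the tested genes, and 23.5% for ALF19, against a median of 28.8%.

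**Figure D1:**
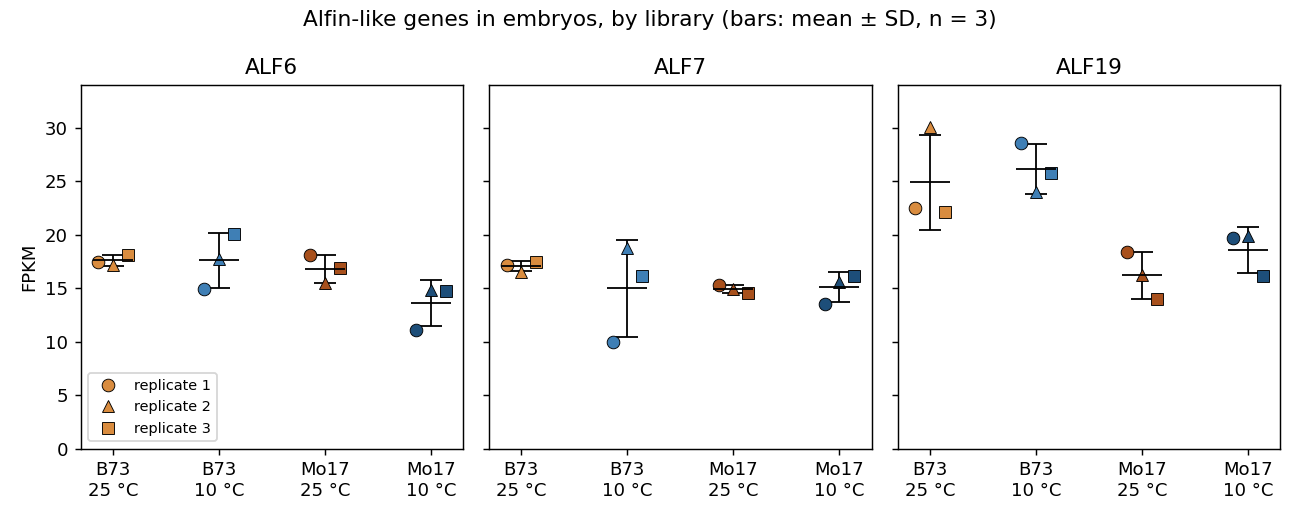
FPKM of ALF6, ALF7 and ALF19 in each of the 12 libraries, grouped by line and temperature, with marker shapes for replicates 1 to 3 and bars for the mean ± SD (n = 3). The 6 B73 libraries of ALF19 sit between 22.14 and 30.06 FPKM, all above its 6 Mo17 libraries at 13.95 to 19.92, while ALF6 and ALF7 overlap between the lines, ALF7 through B73 10 °C replicate 1 alone (9.95).

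ALF19 was lower in Mo17 than in B73 at both temperatures. At 25 °C its FPKM was 22.53, 30.06 and 22.14 in B73 replicates 1 to 3 and 18.35, 16.21 and 13.95 in Mo17. At 10 °C it was 28.60, 23.96 and 25.74 in B73 and 19.73, 19.92 and 16.10 in Mo17. Every B73 library lay above every Mo17 library, whatever the temperature. Groups of the lines did not overlap for 69.7% of tested genes at 25 °C and for 60.5% at 10 °C. The share of tested genes that part over all 12 libraries was not counted.

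The mean of ALF19 at 25 °C was 24.9 ± 4.46 FPKM in B73 and 16.2 ± 2.20 in Mo17 (SD, n = 3 each), 1.54-fold higher in B73. The log2 change of Mo17 against B73 was -0.62 ± 0.16 (SE), with a 95% interval of -0.97 to -0.28 and a p of 0.00457 after Benjamini-Hochberg adjustment over the 76 genes (quasi-likelihood test of edgeR, the source of every adjusted p below unless another tool is named). A gene is called where that value is under 0.05. At 10 °C the means were 26.1 ± 2.34 and 18.6 ± 2.15 FPKM, 1.40-fold higher in B73, with a log2 change of -0.49 ± 0.16 (SE), an interval of -0.84 to -0.14 and a Benjamini-Hochberg adjusted p of 0.0204 by edgeR. The call at 25 °C was kept under all 22 alternatives, with adjusted p from 0.000889 to 0.0231 by edgeR, limma or DESeq2. The call at 10 °C was lost without Mo17 10 °C replicate 3, at a log2 change of -0.40 and a Benjamini-Hochberg adjusted p of 0.0752 by edgeR, and without the library that stood apart it was -0.42 ± 0.17 (SE) with an edgeR adjusted p of 0.045.

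ALF6 differed between the lines in the cold libraries. Its FPKM at 10 °C was 14.90, 17.77 and 20.07 in B73 and 11.08, 14.85 and 14.73 in Mo17, so that the highest Mo17 library lay just below the lowest B73 library. The means were 17.6 ± 2.59 and 13.6 ± 2.14 FPKM (SD, n = 3 each), 1.3-fold higher in B73. The log2 change of Mo17 against B73 was -0.38 ± 0.15 (SE), with an interval of -0.70 to -0.05 and a Benjamini-Hochberg adjusted p of 0.0407 by edgeR. At 25 °C ALF6 stood at 17.46, 17.12 and 18.09 FPKM in B73 and at 18.10, 15.46 and 16.91 in Mo17, and the groups overlapped. There the log2 change was -0.06 ± 0.15 (SE), with an interval of 0.767-fold to 1.2-fold and a Benjamini-Hochberg adjusted p of 0.76 by edgeR.

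The ALF6 call at 10 °C lay close to the threshold. It was lost in a fit of the 6 libraries compared, at a Benjamini-Hochberg adjusted p of 0.117 by edgeR. Leaving out any of 8 single libraries lost it too. By edgeR, the adjusted p came to 0.0544, 0.0514 and 0.0552 without replicates 1, 2 and 3 of B73 at 25 °C. It came to 0.0868 and 0.175 without replicates 2 and 3 of B73 at 10 °C. For Mo17 it was 0.0549 without replicate 3 at 25 °C, and 0.167 and 0.0512 without replicates 1 and 3 at 10 °C. Its log2 change was -0.27 without B73 10 °C replicate 3 and -0.25 without Mo17 10 °C replicate 1, the outermost libraries of each group. Without B73 10 °C replicate 1, the library that stood apart, it was -0.48 ± 0.14 (SE) with a Benjamini-Hochberg adjusted p of 0.0111 by edgeR.

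ALF7 was not called between the lines at either temperature. At 25 °C its FPKM was 17.15, 16.54 and 17.47 in B73 and 15.30, 14.95 and 14.57 in Mo17, with no overlap and little spread. The means there were 17.1 ± 0.472 and 14.9 ± 0.365 FPKM (SD, n = 3 each), 1.14-fold higher in B73, and the log2 change was -0.19 ± 0.19 (SE; edgeR adjusted p = 0.432). At 10 °C it was 9.95, 18.73 and 16.17 in B73 and 13.49, 15.59 and 16.12 in Mo17, where the lowest and the highest library both belonged to B73. The log2 change at 10 °C was 0.01 ± 0.19 (SE), with an interval of 0.755-fold to 1.35-fold (adjusted p = 0.968, same test).

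The low value of 9.95 came from B73 10 °C replicate 1, and it widened the error of ALF7 in every comparison, because the model shares its spread over the groups. Without that library the B73 mean at 10 °C was 17.5 FPKM (n = 2) and the log2 change between the lines turned to -0.21 ± 0.11 (SE) at 10 °C and was -0.19 ± 0.10 (SE) at 25 °C. Both had a Benjamini-Hochberg adjusted p of 0.119 by edgeR, so neither passed. The 5 other B73 libraries lay at 16.17 to 18.73 FPKM, the lowest of them just above the highest Mo17 library at 16.12. That separation holds only with a library left out that was singled out by its values. How many tested genes part in this way was not counted.

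Line differences were common over the table as a whole, which is a set of genes alike in first letter and not the embryo transcriptome. At 25 °C 1 of the 3 members was called, beside 61.8% of the 76 tested genes in either direction and 25.0% called lower in Mo17. At 10 °C 2 of the 3 were called, both lower in Mo17, beside 64.5% called in either direction and 27.6% lower. The groups of the lines did not overlap for 2 members at 25 °C (ALF7 and ALF19) and 2 at 10 °C (ALF6 and ALF19), where 69.7% and 60.5% of tested genes did not overlap. The log2 change of ALF19 ranked 42nd in absolute size at 25 °C and 44th at 10 °C of 76, and was the 12th and 15th lowest.

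**Figure D2:**
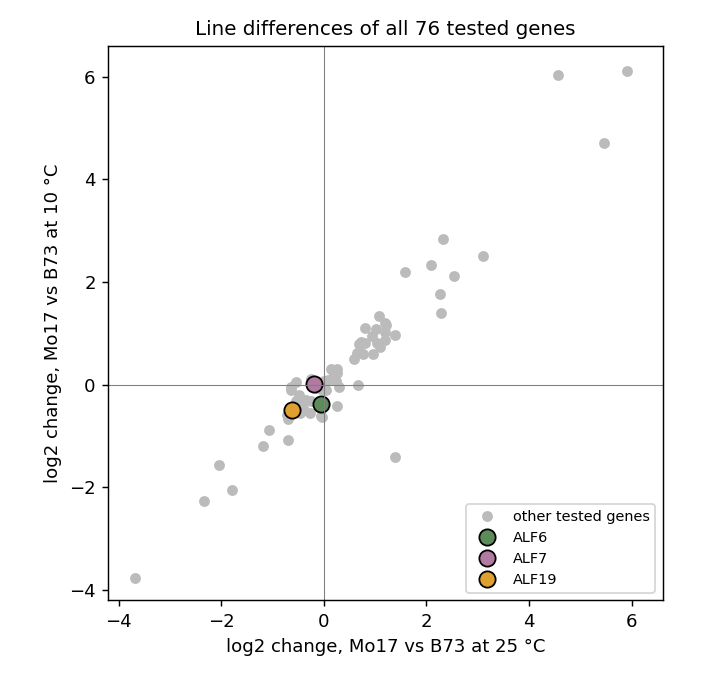
Log2 change of Mo17 against B73 at 25 °C (x axis) and at 10 °C (y axis) for the 76 tested genes, with ALF6, ALF7 and ALF19 in colour and the other genes in grey. The 3 Alfin-like genes lie near the centre of the cloud, ALF19 at -0.62 and -0.49, far inside the most extreme genes.

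The size of the line differences depended on how libraries were scaled. The median log2 change of all tested genes between the lines was 0.17 at 25 °C and 0.06 at 10 °C with depth scaling, and -0.09 and -0.26 with TMM factors, a shift of the whole table toward lower values in Mo17. TMM took ALF19 to -0.89 and -0.81 and ALF6 to -0.32 and -0.70 at 25 °C and 10 °C. It took ALF7 to -0.45 at 25 °C, past the threshold (edgeR adjusted p = 0.0466), and to -0.31 at 10 °C, turning its sign as median-ratio factors did at -0.13. Relative to the median of tested genes the scalings differed by 0.01 at most. Scaling factors move all genes of a contrast by nearly the same amount, so this likeness is built in and does not test the calls. On that relative scale at 25 °C, ALF19 lay at -0.79 with depth scaling and -0.80 with TMM factors, ALF6 at -0.23 and -0.24 and ALF7 at -0.36 with both. At 10 °C the relative values were -0.55 for ALF19, -0.44 for ALF6 and -0.05 for ALF7 with both scalings. The row matched to an endosperm marker after its levels were seen, ae1_1, differed between the lines. Of all tested genes, 61.8% were called between the lines at 25 °C and 64.5% at 10 °C. The 2 endosperm and aleurone markers in the table, ae1_1 and a2, summed to 0.34 to 0.48 FPKM in B73 at 25 °C, 0.40 to 0.72 in B73 at 10 °C, 2.72 to 4.42 in Mo17 at 25 °C and 2.32 to 3.62 in Mo17 at 10 °C. Nearly all of this was ae1_1, whose log2 change of Mo17 against B73 was 3.11 ± 0.31 at 25 °C and 2.51 ± 0.30 at 10 °C (SE; edgeR adjusted p = 5.96e-06 and 2.42e-05). Its part in the line differences of the Alfin-like genes was not tested. The only genome build named for the data is that of B73, and a lower count in Mo17 cannot be told apart from reads of Mo17 that matched that genome less well.

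Cold called no Alfin-like gene in either line. In Mo17 ALF6 had the largest difference of the 3, with 18.10, 15.46 and 16.91 FPKM at 25 °C against 11.08, 14.85 and 14.73 at 10 °C. The groups did not overlap, and the means were 16.8 ± 1.32 and 13.6 ± 2.14 FPKM (SD, n = 3 each). The log2 change was -0.31 ± 0.15 (SE), with an interval of -0.63 to 0.01, an unadjusted p of 0.0563 and a Benjamini-Hochberg adjusted p of 0.238 by edgeR. In B73 the same gene stood at a mean of 17.6 FPKM at both temperatures, with a log2 change of 0.00 ± 0.15 (SE) and an interval of 0.801-fold to 1.25-fold. Its spread was wider in the cold, at an SD of 2.59 against 0.492 FPKM.

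ALF19 had slightly higher means at 10 °C in both lines, within its spread. Its log2 change was 0.07 ± 0.16 (SE; 0.825-fold to 1.33-fold) in B73 and 0.20 ± 0.16 (SE; 0.904-fold to 1.46-fold) in Mo17, and the libraries overlapped in both. ALF7 changed by -0.19 ± 0.19 (SE; 0.657-fold to 1.17-fold) in B73 and by 0.01 ± 0.19 (SE; 0.755-fold to 1.35-fold) in Mo17. Without B73 10 °C replicate 1 the B73 values were 0.03 ± 0.11 (SE) for ALF7 and 0.11 ± 0.14 (SE) for ALF6, and ALF19 had no difference left at 0.00 ± 0.17 (SE). Benjamini-Hochberg adjusted p-values of the 3 genes ran from 0.812 to 0.993 in B73 and from 0.238 to 0.959 in Mo17 (edgeR). Averaged over both lines the log2 changes were -0.16 ± 0.10 for ALF6, -0.09 ± 0.13 for ALF7 and 0.13 ± 0.11 for ALF19 (SE).

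No member was past the threshold in any of these 3 temperature contrasts (0 of 3 by edgeR, by limma and by DESeq2), and 0 of 3 had an unadjusted p under 0.05 by edgeR. Over all 76 genes the unadjusted p was under 0.05 for 8 in B73, 17 in Mo17 and 14 in the average. In B73 1.32% of tested genes were called and 13.2% had groups that did not overlap, against 2.63% and 27.6% in Mo17, and the average of both lines called 10.5%. The groups of 1 member, ALF6 in Mo17, did not overlap.

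The interaction term of line and temperature asks whether the lines responded differently to the cold. By edgeR it called 0 of the 76 genes (0%), as did DESeq2 and limma, and the unadjusted p was under 0.05 for 6 of them. For ALF6 the interaction was -0.31 ± 0.21 (SE), with an interval of -0.77 to 0.14 on the log2 scale. For ALF7 it was 0.20 ± 0.27 (SE; -0.39 to 0.79) and for ALF19 0.13 ± 0.22 (SE; -0.36 to 0.62). The ALF6 call between lines at 10 °C, beside none at 25 °C, is thus not shown to be a difference between temperatures. Without B73 10 °C replicate 1 the interaction of ALF6 was -0.42 ± 0.19 (SE) and that of ALF7 -0.02 ± 0.15 (SE), and neither passed.

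**Figure D3:**
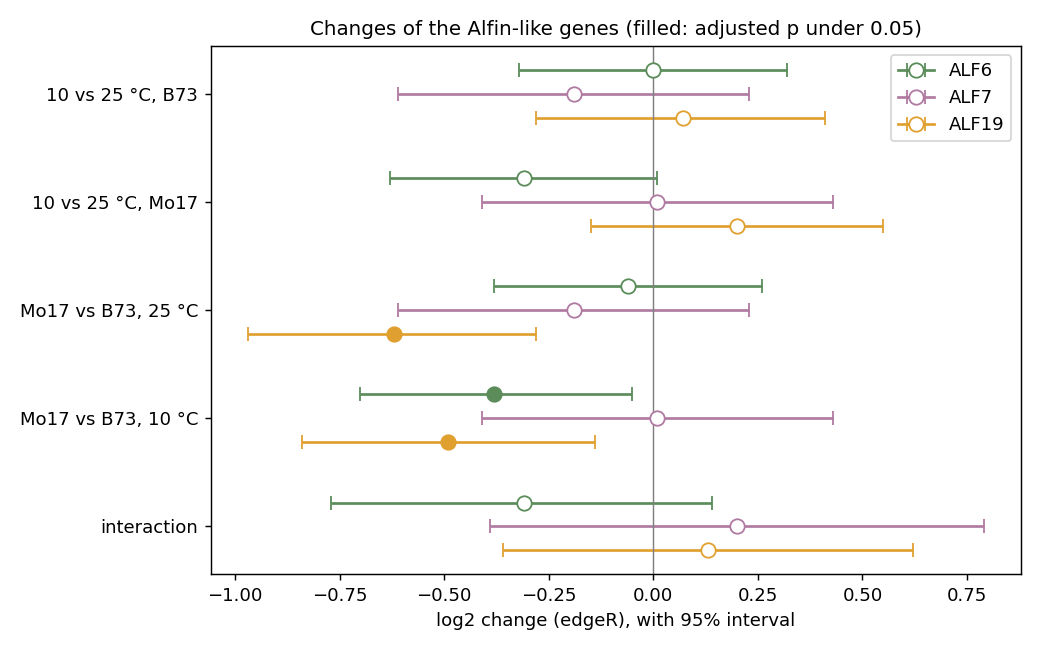
Log2 changes of ALF6, ALF7 and ALF19 from the edgeR fit (x axis) with 95% intervals for the cold response in each line, the line difference at each temperature and their interaction, filled where the adjusted p was under 0.05. Filled points are ALF19 at both temperatures (-0.62 and -0.49) and ALF6 at 10 °C (-0.38), all lower in Mo17, and every temperature and interaction interval spans 0.

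In order of level, ALF19 ran from B73 10 °C (26.1 FPKM) over B73 25 °C (24.9) and Mo17 10 °C (18.6) to Mo17 25 °C (16.2). The first pair overlapped and so did the last pair, and the step between the pairs is that between the lines. ALF6 ran from both B73 groups (17.6 each) over Mo17 25 °C (16.8) to Mo17 10 °C (13.6), and the last group did not overlap with any other. ALF7 ran from B73 25 °C (17.1) over Mo17 10 °C (15.1) and B73 10 °C (15.0) to Mo17 25 °C (14.9), and the neighbours in that order overlapped except B73 25 °C and Mo17 10 °C, at 16.54 to 17.47 against 13.49 to 16.12 FPKM. Without B73 10 °C replicate 1 the B73 10 °C mean of ALF7 was 17.5 FPKM (n = 2), the highest of the 4. Its libraries then did not overlap with either Mo17 group, by a narrow margin (16.17 against 16.12 FPKM in Mo17 at 10 °C). That of ALF6 was then 18.9 FPKM, also the highest, and that of ALF19 was 24.9, level with B73 at 25 °C.

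Added together, the 3 genes reached 59.5 ± 3.65 FPKM in B73 at 25 °C, 58.6 ± 4.55 in B73 at 10 °C, 47.9 ± 3.36 in Mo17 at 25 °C and 47.2 ± 3.04 in Mo17 at 10 °C (SD, n = 3 each). The 6 B73 libraries summed to 53.45 to 63.72 and the 6 Mo17 libraries to 44.30 to 51.75, so the lines did not overlap and the temperatures of each line did. How often sums of 3 other tested genes part the lines was not counted. ALF19 made up 41.7 ± 4.8% of the sum in B73 at 25 °C and 44.9 ± 7.5% at 10 °C. In Mo17 its share was 33.6 ± 2.6% at 25 °C and 39.5 ± 5.1% at 10 °C. ALF6 held 35.1 ± 2.0% of the sum in Mo17 at 25 °C, and its other group means lay between 28.6% and 29.9%. In B73 10 °C replicate 1 ALF19 held 53.5% and ALF7 18.6%. The other B73 libraries at 10 °C had a mean sum of 61.2 FPKM, with 40.6% from ALF19, 30.9% from ALF6 and 28.5% from ALF7 (n = 2).

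**Figure D4:**
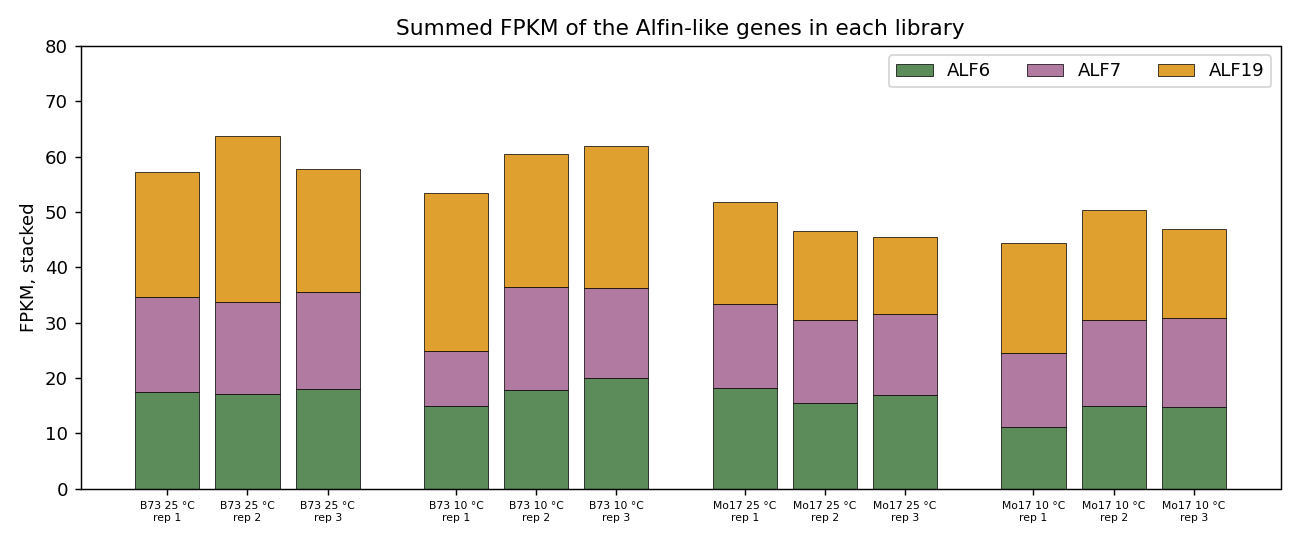
FPKM of ALF6, ALF7 and ALF19 stacked in each of the 12 libraries, ordered by line, temperature and replicate. B73 libraries reach 53.45 to 63.72 FPKM and Mo17 libraries 44.30 to 51.75, and the ALF19 segment shows the largest drop from B73 to Mo17.

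Whether the members moved by unequal amounts was tested on the log2 ratio of each pair within a library, with an exact permutation test (2-sided) of line within temperature and of temperature within line, in 6 comparisons. The ALF7 to ALF19 ratio was 0.761, 0.628, 0.922 and 0.783 in the median library of B73 25 °C, B73 10 °C, Mo17 25 °C and Mo17 10 °C. Its geometric means in the same order were 0.691, 0.555, 0.93 and 0.812. The test compares group means of the log2 ratio. That mean was higher in Mo17 by 0.49, by 0.43 at 25 °C and 0.55 at 10 °C. The exact p of 0.02 became 0.12 after Benjamini-Hochberg adjustment over the 6. That adjusted exact p was 0.03 without B73 10 °C replicate 2, at a difference of 0.61, and 0.33 without B73 10 °C replicate 1, at 0.32. The ALF6 to ALF19 ratio was higher in Mo17 by 0.55 at 25 °C and by 0.12 at 10 °C on the log2 scale. From 25 °C to 10 °C it differed by -0.09 in B73 and -0.52 in Mo17. Averaged, the differences were 0.33 by line and -0.31 by temperature (exact permutation p = 0.09 and 0.095, both 0.19 after adjustment). Without B73 10 °C replicate 1 the averages were 0.24 and -0.21 (adjusted exact p = 0.413 for both).

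The ALF6 to ALF7 ratio had no common direction. It differed between the lines by 0.13 at 25 °C and -0.43 at 10 °C, and between temperatures by 0.23 in B73 and -0.33 in Mo17 (Mo17 minus B73 and 10 °C minus 25 °C, log2). Averaged, these were -0.15 and -0.05 (exact permutation p = 0.305 and 0.73, adjusted 0.366 and 0.73). In Mo17 ALF6 exceeded ALF7 in 3 of 3 libraries at 25 °C and in 0 of 3 at 10 °C, where the ratio was 1.03 to 1.18 and 0.821 to 0.953. The ALF7 to ALF19 ratio was lower at 10 °C by 0.26 in size (exact permutation p = 0.25, adjusted 0.366). Without B73 10 °C replicate 1 that difference was -0.09 (adjusted exact p = 0.585), and the ALF6 to ALF7 ratio differed by -0.08 between lines and -0.13 between temperatures (adjusted exact p = 0.585 and 0.413). The smallest p this design allows is 0.005. No unequal change of the members was therefore shown after adjustment.

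Other tested genes followed single members over the 12 libraries, given here as description (Pearson r of log2(FPKM + 1), n = 12 libraries, which share line and temperature within groups). Nearest to ALF6 were act2, an actin (r = 0.78), aprl7, named an APS reductase-like protein and annotated to protein disulfide isomerase activity (0.76), and AI920398, listed as unknown (0.69). Nearest to ALF7 were aprl7 (0.62), als1, an acetolactate synthase of branched-chain amino acid synthesis (0.59), and apx2, an ascorbate peroxidase (0.56). Nearest to ALF19 were AI676903, an uncharacterized protein with a DNA-binding annotation (0.86), aox1_1, an alternative oxidase of mitochondria (0.82), and aprl8, named like aprl7 (0.82).

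Within the 6 B73 and the 6 Mo17 libraries taken apart, the r of ALF19 was 0.19 and 0.47 with AI676903, 0.01 and -0.66 with aox1_1, and 0.25 and 0.53 with aprl8. ALF6 with aprl7 kept 0.86 and 0.58, ALF6 with act2 0.39 and 0.82, and ALF6 with AI920398 0.84 and 0.51. ALF7 with aprl7 had 0.92 and 0.08, with als1 0.93 and 0.31, and with apx2 0.82 and -0.82.

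Deviations from the 4 group means describe which genes varied with a member between replicates. The genes named had the highest r among all tested genes, so their values are high in part through that choice. ALF6 was nearest to ACR4, with annotations to amino acid metabolism and cytokinin response (r = 0.83), AI665421, annotated as a membrane protein that binds zinc (0.72), and ALF7 (0.69). ALF7 was nearest to ache1, annotated with cholinesterase activity, and abcf1, annotated as a transporter (0.83 each), and to als1 (0.80). ALF19 was nearest to ap17, a subunit of the AP-2 complex of endocytosis (0.84), AI987507, related to the INDETERMINATE zinc finger regulators (0.71), and aprl5, of the same naming series as aprl7 (0.71). Between members, ALF19 was at -0.28 with ALF6 and -0.41 with ALF7.

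B73 10 °C replicate 1 carried part of this. Over the 11 other libraries the r of deviations was 0.50 for ALF6 with ALF7, 0.78 for ALF6 with ACR4 and 0.64 for ALF6 with AI665421. For ALF7 it was 0.32 with ache1, -0.09 with abcf1 and 0.61 with als1. For ALF19 it was 0.85 with ap17, 0.68 with AI987507, 0.67 with aprl5, -0.13 with ALF6 and -0.34 with ALF7.

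Other genes of the table annotated to transcription or DNA binding numbered 10, of which 6 were tested. Of the 6, 0 were called higher in Mo17, beside 36.8% of the 76 tested genes at 25 °C and 36.8% at 10 °C. AI676903 was lower in Mo17 at 25 °C, at 7.81 ± 0.376 against 10.8 ± 0.428 FPKM (SD, n = 3 each; log2 change -0.46 ± 0.10, SE), and at 10 °C (-0.30 ± 0.10, SE), with edgeR adjusted p of 0.00141 and 0.0208. AI812156, a subunit of Elongator, which acts in transcription, was lower in Mo17 at 10 °C (-0.31 ± 0.12, SE; edgeR adjusted p = 0.0363). Hence 1 of 6 was called lower at 25 °C and 2 of 6 at 10 °C, beside 25.0% and 27.6% of all tested genes. The median log2 change of the 6 genes was -0.13 and -0.04, beside 0.17 and 0.06 over all tested genes.

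With temperature, 0 of these 6 genes was called in either line, beside 1.32% of all tested genes in B73 and 2.63% in Mo17. In the average of both lines 1 of the 6, AI812156, fell, at -0.35 ± 0.08 (SE; edgeR adjusted p = 0.0152). Beside it, 10.5% of tested genes were called there in either direction. Their median log2 change with cold was 0.04 in B73 and 0.08 in Mo17, beside -0.05 and -0.02 over all tested genes. ARF16, an auxin response factor, was the most abundant, at group means of 258 to 278 FPKM, and group means of the others reached at most 12.7. The untested genes were ALF10 and 3 NAC regulators (ANAC010, ANAC030 and ANAC044), which reached at most 1.97 FPKM.

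Apart from the Alfin-like genes, chromatin annotations were held by AI812156 and by afd1, a cohesin of meiosis, which was not called in any contrast. In B73 its log2 change with cold was 0.57 ± 0.31 (SE), and in Mo17 it was -0.10 ± 0.31 (SE). Genes annotated to abscisic acid, the hormone that holds seeds dormant, or to germination numbered 9, of which 8 were tested. Of these, 4 were higher in Mo17 at both temperatures (ACC1, act1, adh1 and adh2) and 1 was lower (act2), beside 36.8% of all tested genes called higher at either temperature and 25.0% and 27.6% called lower, with a median log2 change over the 8 of 0.70 at 25 °C and 0.65 at 10 °C. Those of the alcohol dehydrogenase adh1, which acts when oxygen is short, were 2.09 ± 0.22 and 2.32 ± 0.22 (SE). Several are metabolic or structural genes that carry such a term among others. With cold 0 of the 8 was called in either line, beside 1.32% of all tested genes in B73 and 2.63% in Mo17. The medians of the 8 were -0.02 in B73 and -0.01 in Mo17. In the average of both lines 1 of the 8, adh1, was called lower, beside 10.5% of tested genes called in either direction.

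**Figure D5:**
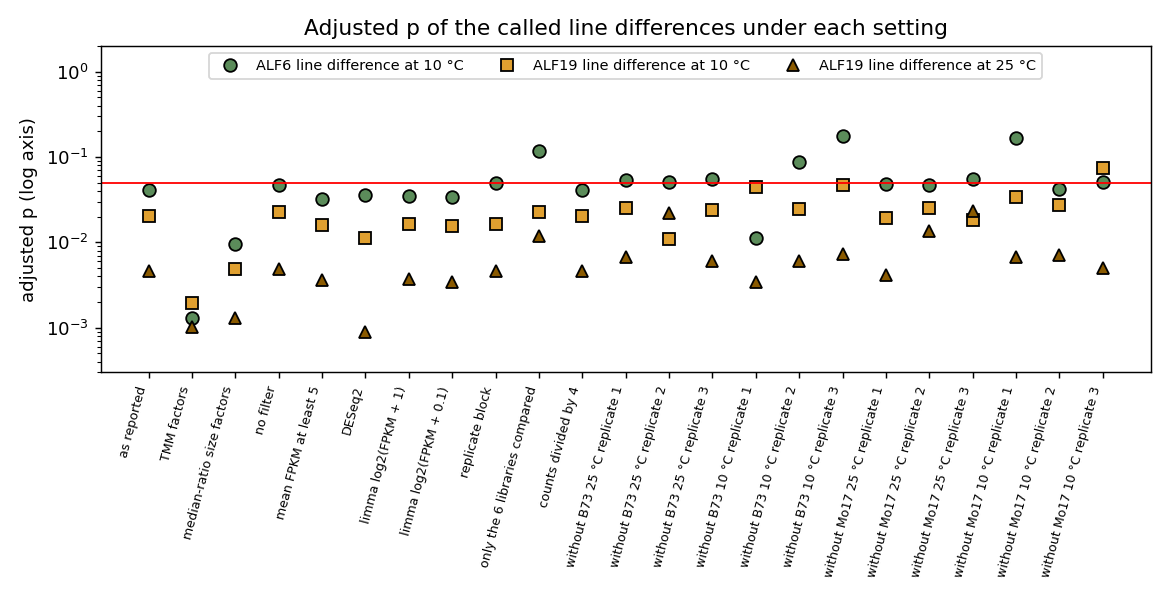
Adjusted p (y axis, log scale) of the 3 called line differences as reported and under each alternative, with the threshold of 0.05 as a red line. ALF19 at 25 °C stays below the line throughout (0.000889 to 0.0231), ALF19 at 10 °C crosses it once (0.0752), and ALF6 at 10 °C lies on either side (0.0013 to 0.175).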

How the data were processed

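Per the labels' protocols, polyadenylated RNA was sequenced in pairs from dUTP-marked libraries. Tools listed in the submitters' processing notes, without roles, are HISAT2 2.0.4, StringTie 1.3.4d, cutadapt 1.9, DESeq2 and edgeR, and the build is B73 RefGen_v4. The sources used here do not give the strand setting of the counting. The authors deposited a count and an FPKM per gene and library, per the file headers. No deposited count is 1 or 2 and 4 occurs 19 times, so a fragment may be worth several counts, and no counting interval is given. Count over FPKM, constant within 0.373% in 48 genes with FPKM of at least 5 throughout, gave relative depth. Total depth is unknown.

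edgeR 4.0.16 (R 4.3.3) fitted 4 group means to the counts of 76 genes (FPKM of at least 1 in at least 3 libraries), with library sizes from relative depth and no TMM factors. Tests were 2-sided, adjusted by Benjamini-Hochberg over the 76, with a threshold of 0.05. Standard errors are the log2 change over the root of F. The procedure was tested on simulated data. Members, gene lists and tests were chosen with earlier results of these data known. Named genes were all members, the 3 nearest to each by r and the called members of each list. Alternatives were TMM and median-ratio factors, other filters, DESeq2 1.42.0, limma 3.58.1 on log2(FPKM + 1) or log2(FPKM + 0.1), a replicate block, the 6 libraries compared, each library left out and, added after seeing the data, counts divided by 4. Chromosome numbers come from transcripts matched in the RefSeq table of a later B73 assembly (91 of 99 genes).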

Additional observations from a re-analysis of the deposited data

How the results depend on the processing

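Of 24 results (18 log2 changes and 6 ratios), 20 stayed on their side of the threshold under every alternative run. Among these 20, only ALF19 between lines at 25 °C was a call. Of the results that changed sides, ALF6 between lines at 10 °C was called in 12 of 22 alternatives. It was -0.37 with a replicate block and -0.38 with the 6 libraries compared, neither past the threshold (edgeR adjusted p = 0.0502 and 0.117). With each library left out it was -0.48 to -0.25. ALF7 between lines at 25 °C was -0.45 with TMM, now called. With each library left out, ALF19 between lines at 10 °C ran from -0.55 to -0.40 and the ALF7 to ALF19 ratio by line from 0.32 to 0.61. The cause was not tested. The replicate block changed no other call of a member. Same-numbered libraries deviated together at an r over 0.1 in 4 of 18 pairs, with r from -0.435 to 0.444, so no pairing by number was seen. With 3 libraries a group these values cannot settle whether libraries of the same number shared a batch. Over all tested genes, calls with cold in B73 numbered 1, against 0 with TMM or median-ratio factors, 2 with DESeq2, the block or 6 libraries, and 0 to 2 with a library left out (0 without any B73 25 °C library, B73 10 °C replicate 3, Mo17 25 °C replicate 2 or Mo17 10 °C replicate 3, and 2 without Mo17 10 °C replicate 1 or 2). In Mo17 they numbered 2, against 4 with median-ratio factors, 9 with DESeq2, 1 with the block, 0 with 6 libraries and 0 to 5 with a library left out (5 without B73 10 °C replicate 1 or Mo17 25 °C replicate 1, and 0 without Mo17 25 °C replicate 2 or 3 or Mo17 10 °C replicate 1 or 3). With 3 libraries a group, changes within the intervals given for the cold responses could be missed.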
